A study of Homo sapiens with 6 samples.

Results

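Chromatin accessibility around 10 genes of the NF-kB system was followed over 72 h of phorbol ester treatment. The genes were the 5 factor genes NFKB1, NFKB2, REL, RELA and RELB, the inhibitor genes NFKBIA, NFKBIE, NFKBIZ and BCL3, and TNFAIP3. Members were all sites of the deposited accessibility table (GRCh38) that overlapped 1 of these genes or the 50 kb on either side, which gave 183 of 181135 sites. A site was called a promoter site where it overlapped the 1000 bases on either side of a gene start annotated by RefSeq, and a distal site otherwise. For RELB and NFKBIE the table used here lists no start, so either end of the gene was taken in its place, and 5 of the promoter sites rest on that. This gave 15 promoter and 168 distal sites, from 7 sites for NFKBIZ to 31 for TNFAIP3. After the filter on low counts 179 sites were tested, all 15 promoter sites and 164 distal sites.

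NF-kB factors are dimers of proteins that share the REL homology domain. In resting cells inhibitors of the IκB family hold them in the cytoplasm, and activated IκB kinase marks these inhibitors for degradation, which frees the dimers to enter the nucleus. Phorbol esters mimic diacylglycerol and activate protein kinase C, which lies upstream of IκB kinase in many cell types, and NFKBIA and TNFAIP3 are textbook targets of the pathway that act back on it.

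The study used ATAC-seq, in which a transposase cuts open chromatin and the number of reads over a site measures its accessibility. The cells were wild-type K562, a human chronic myelogenous leukemia line, treated with 25 nM phorbol 12-myristate 13-acetate (PMA) for 0, 6 or 72 h, with 2 libraries at each time. The 0 h libraries were the baseline of every comparison with 6 h or 72 h, and all groups came from this 1 line. The labels name replicates but no separate cultures, so the p-values measure the spread between these libraries, which may be technical.

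Reads in sites summed to between 12258890 counts (6 h, the first library) and 35548737 counts (72 h, the second library), and no libraries were copies of each other. Values are CPM, counts divided by the library size after scaling by TMM, the default scaling of edgeR. Of 8 erythroid genes fixed as markers of K562, 7 had a site at the gene start or end, and each of the 7 had a deposited peak in both 0 h libraries. Their summed level was 214 CPM at 0 h, 120 at 6 h and 67.4 at 72 h. Of 8 marker genes of other blood cells, 6 had such a site and 5 had peaks in both 0 h libraries, with a summed level of 77.1, 59.3 and 53.3 CPM. In that list the SPI1 site had 38.1 CPM at baseline and 11.6 CPM after 72 h, and the CSF1R site had 4.40 and 15.5 CPM. The sites of 2 of 4 megakaryocyte genes summed to 32.3, 16.4 and 21.5 CPM, and those of 3 of 4 epithelial or fibroblast genes to 40.4, 33.1 and 20.2 CPM. Their part in the results below was not tested. In bulk libraries a site open in fewer cells and a site less open in each cell cannot be told apart. Scaling matters at 72 h, since over the 177759 tested sites the median change against 0 h was 0.29 (log2) with TMM and ranged from −0.03 to 1.26 over the other scalings.

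Most of the promoter entries of these genes held a match to the consensus binding sequence of NF-kB. RefSeq promoter entries of GRCh38.p14, 250 bases before to 50 bases after a gene start, were available for 8 of the 10 genes, with 13 entries. The NF-kB consensus was searched on both strands as GGGRNNYYCC, with R for A or G, Y for C or T and N for any base. It matched in 9 of the 13 entries, compared with 2811 of 22199 entries of all protein-coding genes (12.66%). TGANTCA, the AP-1 motif, matched in 0 of 13 and in 6.15% of all entries. GATA matched in 1 of 13 and in 43.59% of all entries. Several of the 13 entries share a gene, with 3 of NFKB2. Their GC content ran from 51.3% to 80.0%, beside a median of 62.3% over all entries. The part of GC content in these shares was not tested. The 250 bases before a start of 5 genes are shown, all from entries that held a match, with NF-kB matches in capitals. The entries not shown include some with a match and all those without, and the promoter results below cover their genes too.
NFKB1, chr4:102501109-102501358, plus strand: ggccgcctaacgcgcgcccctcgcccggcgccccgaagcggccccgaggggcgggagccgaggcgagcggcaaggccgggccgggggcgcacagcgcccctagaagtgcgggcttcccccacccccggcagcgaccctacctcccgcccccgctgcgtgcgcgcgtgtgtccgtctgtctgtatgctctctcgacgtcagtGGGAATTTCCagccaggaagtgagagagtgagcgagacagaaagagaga
NFKB2, chr10:102394328-102394577, plus strand: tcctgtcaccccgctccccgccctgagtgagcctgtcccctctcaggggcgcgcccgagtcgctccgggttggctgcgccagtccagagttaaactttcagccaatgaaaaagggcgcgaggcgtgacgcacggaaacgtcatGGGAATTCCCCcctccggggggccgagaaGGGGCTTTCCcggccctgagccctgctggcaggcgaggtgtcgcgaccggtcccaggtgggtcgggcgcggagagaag
REL, chr2:60881324-60881573, plus strand: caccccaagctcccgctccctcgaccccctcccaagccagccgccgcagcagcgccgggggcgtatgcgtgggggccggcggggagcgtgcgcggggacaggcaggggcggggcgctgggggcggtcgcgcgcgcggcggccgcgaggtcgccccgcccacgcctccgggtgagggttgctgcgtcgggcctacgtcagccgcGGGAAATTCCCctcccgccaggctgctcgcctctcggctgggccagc
NFKBIA, chr14:35404750-35404999, minus strand: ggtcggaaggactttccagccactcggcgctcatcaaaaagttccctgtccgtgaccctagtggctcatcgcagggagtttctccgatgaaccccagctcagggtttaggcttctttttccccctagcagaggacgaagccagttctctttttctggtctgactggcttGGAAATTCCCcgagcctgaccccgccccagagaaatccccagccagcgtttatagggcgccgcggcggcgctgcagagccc
TNFAIP3, chr6:137867009-137867258, plus strand: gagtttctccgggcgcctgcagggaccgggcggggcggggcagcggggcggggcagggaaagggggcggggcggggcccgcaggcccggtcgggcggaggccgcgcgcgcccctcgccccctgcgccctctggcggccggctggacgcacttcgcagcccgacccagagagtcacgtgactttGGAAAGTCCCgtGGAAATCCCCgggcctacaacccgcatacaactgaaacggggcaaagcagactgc
A match began 47 bases before the start in REL, with an overlapping match at 46 on the other strand, 49 in NFKB1 and 81 in NFKBIA. TNFAIP3 had matches at 67 and 55 bases. The NFKB2 start shown had an overlapping pair at 107 and 106 bases and another match at 78 bases. No match was found in the 2 RELA entries, which says only that these letters are not in those windows.

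At the promoters most calls under PMA were late losses of accessibility, where late means not called at 6 h. None of the 15 promoter sites was higher at 6 h and 1 was lower, at NFKBIZ, while 14 were lower at 72 h and none was higher (edgeR quasi-likelihood test, Benjamini-Hochberg adjusted p under 0.05 over all tested sites). Of all promoter sites of protein-coding genes, taken at the starts that RefSeq promoter entries list, 47.2% were called at 6 h, 7.44% higher and 39.8% lower. At 72 h, 84.0% of all promoter sites were called, with 75.7% of all lower and 8.37% higher. The 72 h loss at the member promoters had a median of −1.24 on the log2 scale, beside −1.23 for all promoter sites. At 6 h the member median was −0.18, beside −0.38. With TMM only 1 of the 15 log2 fold changes at 6 h was above 0. A missing call at 6 h therefore does not show that a site was unchanged.

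Between 6 h and 72 h, 13 of the 15 fell, where 73.3% of all promoter sites were called, 68.9% lower and 4.37% higher. Classed by time, 12 member promoters fell late, meaning that they were not called at 6 h and were called lower at 72 h against both earlier times. Among all promoter sites 31.2% fell late and 39.0% fell by 6 h and stayed lower. Of the 10 sites at annotated starts 9 were lower at 72 h and 8 fell late, and all 5 at the ends of RELB and NFKBIE were lower at 72 h. The size of the 72 h loss depended on the scaling, with a member median of −1.42 with DESeq2-type size factors, −0.74 with total counts, −0.40 with loess offsets and −0.27 with factors from the sites shared by all peak lists. The 14 lower sites became 12 with total counts, 8 with loess offsets and 5 with factors from shared peaks, and under each of the last 2 scalings 1 site was higher. The median of the member promoters minus the median of all sites at 72 h was −1.53 with TMM and −0.37 with loess offsets. For all promoter sites this value was near that of the members, −1.53 with TMM and −0.34 with loess offsets. The single 6 h call became 6 lower sites with DESeq2-type size factors and 0 without the first 6 h library.

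The NFKB1 promoter (peak127231, chr4:102501019-102502362), at the gene of a precursor processed to a DNA-binding subunit, had 39.0 and 52.8 CPM at 0 h, 42.1 and 40.5 CPM at 6 h and 18.0 and 21.2 CPM at 72 h. The 6 h libraries lay within the range at 0 h, and both 72 h libraries lay below all others. On the log2 scale it changed by −0.16 (SE 0.16, adjusted p = 0.468) at 6 h and by −1.23 (SE 0.16, adjusted p = 1.2e-06) at 72 h.

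REL encodes a subunit with a transactivation domain that is prominent in lymphoid cells. Its promoter (peak90130, chr2:60880875-60882087) had 45.8 and 48.9 CPM at 0 h, 35.8 and 38.8 CPM at 6 h and 14.9 and 15.6 CPM at 72 h. The 3 times did not overlap, but the 6 h difference of −0.34 (SE 0.15) missed the threshold (adjusted p = 0.0689). Without the first 0 h library it was −0.45 and passed (adjusted p = 0.0418). At 72 h the promoter had fallen by 1.64 on the log2 scale (SE 0.15, adjusted p = 7.9e-09).

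RELA, the main transactivating subunit, had 39.6 and 44.7 CPM at its promoter (peak33599, chr11:65662445-65664146) at 0 h, 35.9 and 40.9 CPM at 6 h and 17.7 and 16.9 CPM at 72 h. RELB, a subunit of the noncanonical pathway, had a site at each end of the gene (peak84356 and peak84361). At 6 h none of the 3 sites was called, and the 72 h log2 fold changes were −1.29 for RELA and −1.59 and −1.30 for the RELB sites. The RELB site at chr19:45038666-45039774 also lies at an end of CLASRP, so it cannot be assigned to RELB alone.

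NFKB2, the gene of the precursor of the noncanonical pathway, had a strong promoter site (peak27206, chr10:102393857-102394806) and a weaker one at a further start (peak27207, chr10:102395305-102395963). The strong site went from 40.6 and 43.2 CPM at 0 h through 33.6 and 35.4 CPM at 6 h to 15.2 and 16.02 CPM at 72 h, a 72 h log2 fold change of −1.42 (SE 0.15, adjusted p = 5.3e-08). The weaker site had 9.10 and 9.75 CPM at 0 h and 5.46 and 5.33 CPM at 72 h, a change of −0.81 (SE 0.25, adjusted p = 0.0071). Without the second 72 h library the value was −0.79 and no longer called (adjusted p = 0.0542). It was −0.30 (adjusted p = 0.276) with total counts and turned to 0.16 (adjusted p = 0.568) with factors from shared peaks.

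Among the inhibitors, the NFKBIA promoter (peak51025, chr14:35403637-35405074), at the gene of IκBα, had 41.6 and 48.8 CPM at 0 h, 37.3 and 40.4 CPM at 6 h and 14.4 and 16.6 CPM at 72 h. The change was −0.22 (SE 0.15, adjusted p = 0.274) at 6 h and −1.54 (SE 0.16, adjusted p = 2.8e-08) at 72 h. Every 6 h library lay below both 0 h libraries, and the 72 h libraries lay far below all others.

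TNFAIP3, a ubiquitin-editing enzyme that restrains the pathway, had 62.4 and 62.7 CPM at its promoter (peak148021, chr6:137866367-137867961) at 0 h, 50.7 and 56.1 CPM at 6 h and 27.9 and 25.1 CPM at 72 h. The groups did not overlap. The difference was −0.23 (SE 0.14, adjusted p = 0.21) at 6 h and −1.24 (SE 0.14, adjusted p = 1.5e-07) at 72 h. With loess offsets the 72 h value was 0.14 and not called.

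NFKBIZ, a nuclear member of the IκB family, has 2 annotated starts, of which the inner had the more accessible site. At the inner start (peak117568, chr3:101848868-101850224) the libraries had 42.8 and 55.3 CPM at 0 h, 36.8 and 36.5 CPM at 6 h and 13.7 and 16.7 CPM at 72 h. This was the only member promoter called at 6 h, with −0.42 (SE 0.16, adjusted p = 0.0427). The call was lost without the second 0 h library (−0.22, adjusted p = 0.379) and without either 6 h library (adjusted p = 0.122 and 0.106). The outer start (peak117567, chr3:101827481-101828303), which also lies at an end of NXPE3, had 6.50 and 4.25 CPM at 0 h and 4.30 and 4.25 CPM at 72 h and was not called at any time (72 h log2 fold change −0.32, SE 0.26, adjusted p = 0.278). It turned to 0.64 (adjusted p = 0.0324) with factors from shared peaks.

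BCL3, another nuclear IκB protein, had 34.0 and 31.6 CPM at its promoter (peak84314, chr19:44747184-44749014) at 0 h, 27.4 and 34.3 CPM at 6 h and 17.6 and 15.0 CPM at 72 h. Its 6 h libraries enclosed those at 0 h, and only the 72 h libraries stood apart (−1.01, SE 0.16, adjusted p = 1.5e-05, but 0.00 with loess offsets).

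NFKBIE, the gene of IκBε, had 3 sites at its gene ends. The strongest (peak144293, chr6:44256661-44257999) also lies at an end of SLC35B2, and its 72 h change was −1.23, but 0.32 (adjusted p = 0.0259) with loess offsets. The site at the other end (peak144297, chr6:44264967-44266002) kept 39.8 and 39.3 CPM at 0 h and 38.2 and 37.1 CPM at 6 h and had 19.2 and 16.4 CPM at 72 h. A narrow site beside it (peak144296) had 5.85 and 3.59 CPM at 0 h and 2.15 and 2.31 CPM at 72 h, a change of −1.06 (SE 0.31, adjusted p = 0.0045) that was lost without the first 0 h library (−0.70, adjusted p = 0.0851).

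**Figure D1:**
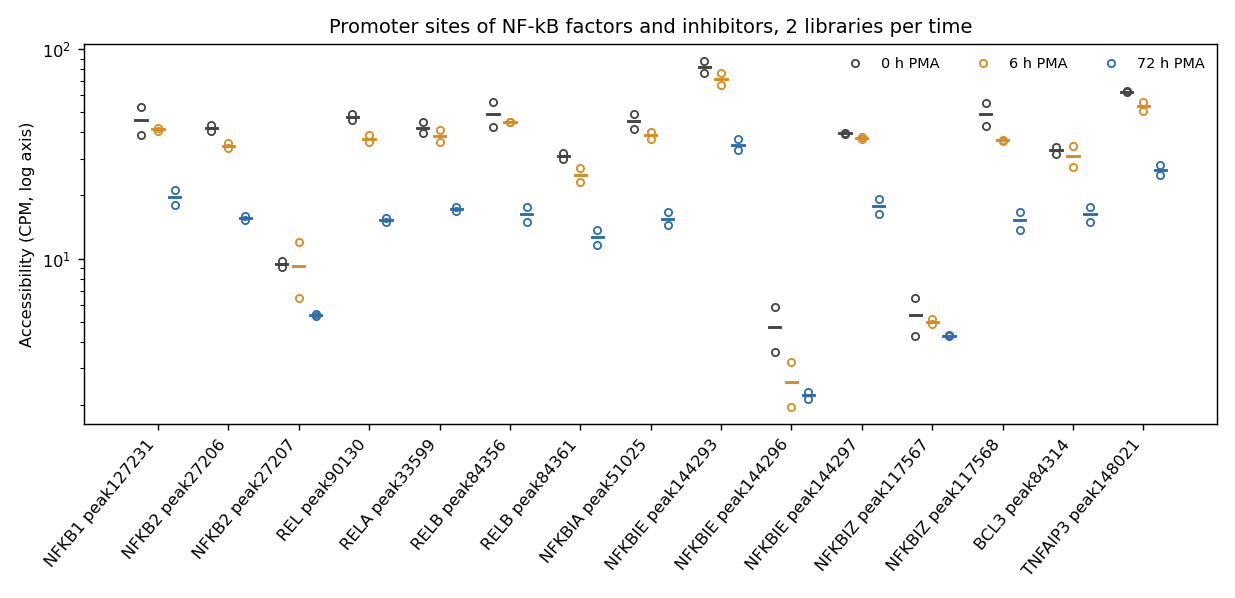
Accessibility in CPM on a log axis for the 15 promoter sites, named by gene and by the identifier of the deposited table. Circles are libraries, 2 per time, and bars are their means. In 13 sites both 72 h libraries lie below all 0 h and 6 h libraries under TMM scaling, while 1 site is called at 6 h. With other scalings fewer sites are lower at 72 h.

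Per kb of site length, the 0 h levels ran from 6.53 CPM per kb at the outer NFKBIZ start to 61.1 at the NFKBIE site shared with SLC35B2, followed by 44.1 at NFKB2. REL (39.0 ± 1.80, SD, n = 2) did not differ beyond its spread from its neighbors in this order, TNFAIP3 above it (39.2 ± 0.12) and the other NFKBIE end below it (38.2 ± 0.34). Nor were neighbors apart among the inner NFKBIZ start (36.1 ± 6.51), NFKB1 (34.2 ± 7.28), RELB (32.8 ± 6.31) and NFKBIA (31.4 ± 3.55). RELA (24.8 ± 2.13) and BCL3 (17.9 ± 0.92) were lower. The median of the 15 sites was 32.8 CPM per kb at 0 h, 27.0 at 6 h and 11.2 at 72 h, whereas that of the distal sites was 6.03, 6.02 and 4.76.

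The distal sites changed in both directions. Of the 164 tested, 39 were higher and 34 lower at 6 h, and 37 were higher and 74 lower at 72 h. Among all sites of the table that are no promoter site, 39.5% were called at 6 h, 24.7% higher and 14.8% lower, and 66.0% at 72 h, 40.7% higher and 25.3% lower. The share of called distal members at 6 h was 44.51%. The members had a median of 0.14 (log2) at 6 h and −0.58 at 72 h, and all such sites had 0.13 and 0.47. The sets differed at 0 h, with a median level of 6.03 CPM per kb at the distal members and 2.88 at all such sites. Peaks lay in both 0 h libraries at 42.86% of the distal members and 24.02% of all such sites. Whether this baseline bears on the 72 h directions was not tested.

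Between 6 h and 72 h, 12 distal members were higher and 68 lower (7.32% and 41.46% of those tested), where 40.3% of all such sites were called, 23.6% higher and 16.8% lower. With factors from shared peaks this direction turned, to 28 higher and 21 lower and a median of 0.09 in place of −0.57. Of all sites in the table, promoters included, 40.1% were called at 6 h, 67.4% at 72 h and 42.9% between the last 2 times. At 6 h 23.4% of all sites were higher and 16.8% lower, beside 39 and 35 members, and at 72 h 38.2% were higher and 29.2% lower, beside 37 and 88 members. Scaling moved these splits. Of the called members 52.7% were higher at 6 h and 29.6% at 72 h with TMM, 67.6% and 46.2% with total counts, and 79.7% and 67.6% with factors from shared peaks. Without the first 6 h library the lower members at 6 h, promoters included, numbered 23 in place of 35. At 72 h against 6 h, 4 distal sites were higher and 41 lower without the second 72 h library, and 43 were lower without the first.

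Sites changed early and kept the change in 57 cases, 34.76% of the distal members tested, beside 33.14% of all sites that are no promoter site. By 6 h 25 distal sites had gained and 32 had lost accessibility and were still called in the same direction at 72 h, or 15.24% and 19.51% of those tested, against 20.9% and 12.2% of all such sites. Another 10 gained and 2 lost accessibility at 6 h and returned, meaning that they were called in the opposite direction at 72 h against 6 h and not called at 72 h against 0 h. These are 6.10% and 1.22%, against 2.33% and 1.38%. Late changes came to 6 gains and 28 losses, against 13.6% and 6.93% of all such sites, which here are 3.66% and 17.07% of the members. The sets are unlike, since all such sites leave out annotated starts, while 20 distal members overlapped starts of other genes. Of these 20, 13 were kept losses. Away from the ends and starts of any protein-coding gene, kept gains and losses came to 16.03% and 10.69% of members, beside 21.39% and 11.57% of all sites. Returned gains and losses were 6.87% and 1.53% there, beside 2.33% and 1.41%. Late gains and losses were 4.58% and 17.56%, beside 13.96% and 6.32%.

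Part of the distal losses lay at promoters of neighboring genes. Of 20 distal members that overlapped the start of another protein-coding gene, 13 were lower at 6 h and 16 at 72 h, where 39.8% and 75.7% of all promoter sites were lower. Away from the ends and starts of any protein-coding gene, 131 sites were tested, with 34 higher and 16 lower at 6 h and 33 higher and 51 lower at 72 h. Among all such sites, members or not, 39.4% were called at 6 h, 25.1% higher and 14.2% lower, so that the 6 h shares of the members (25.95% and 12.21%) were near the background. At 72 h 65.7% of all such sites were called, 41.7% higher and 24.0% lower, beside 25.19% and 38.93% of the members. These members too were more accessible at 0 h, with a median of 5.12 CPM per kb beside 2.77 for all such sites. Deposited peaks were found in both libraries of a time at 86 member sites at 0 h, 77 at 6 h and 117 at 72 h. These are 46.99%, 42.08% and 63.93% of the members, beside 27.79%, 31.08% and 62.84% of all sites. The libraries differed in depth, with 17669446 and 24470037 counts at 0 h and 12258890 and 33634403 at 6 h. At 72 h they had 30934990 and 35548737 counts. The part of depth in the peak counts was not tested, so the counts are not a measure of opening.

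**Figure D2:**
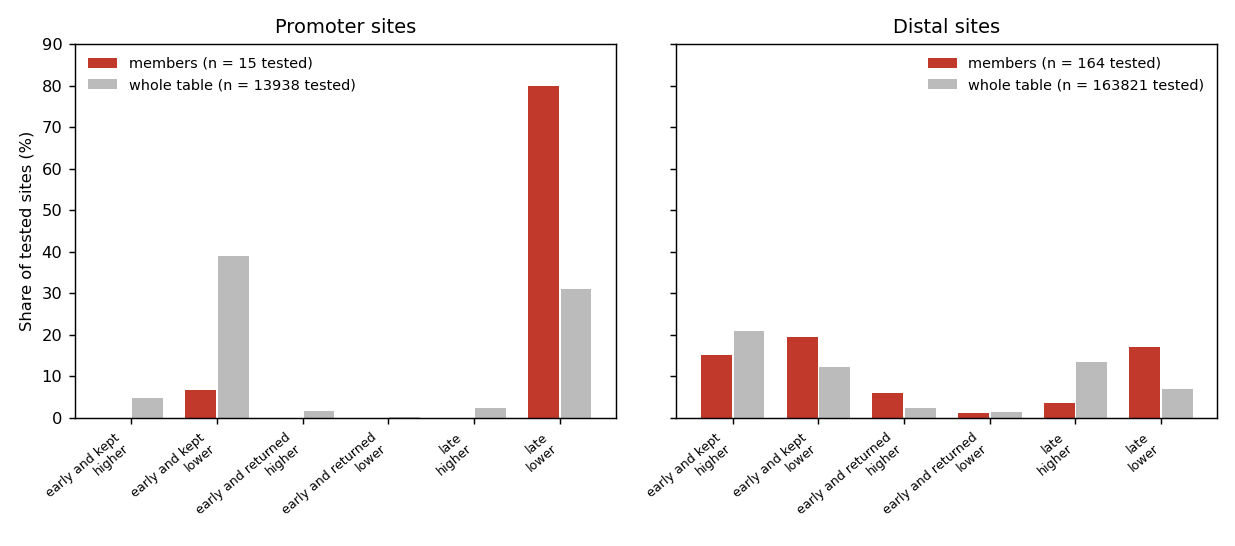
Share of tested sites (%) in each time class, members in red and the whole table in grey, for promoter sites (15 members) and distal sites (164 members). Late loss takes 80.0% of the member promoters and 17.07% of the distal members. The distal members include sites at starts of other genes, which the grey distal bars leave out. The members of a panel are sites of 10 genes and are not replicates.

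The genes differed in the balance of their distal sites, a difference that was not tested. Of all sites that are no promoter site 40.7% were higher and 25.3% lower at 72 h. Some windows hold starts of other genes, as around NFKB2, while the distal sites of NFKB1 overlapped none. Around NFKB1, 9 of 17 tested distal sites were higher at 72 h and 1 was lower, and the median (log2) was 0.91 at 6 h and 1.35 at 72 h. REL had 3 higher and 1 lower of 7, with medians of 0.99 and 0.90. Around RELA 1 was higher and 9 were lower of 15 at 72 h, and the medians were −0.50 and −0.88. RELB had 1 higher and 9 lower of 15, but a median of −0.01 at 6 h and −1.26 at 72 h. NFKB2 had 4 higher and 8 lower of 18.

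Among the inhibitors NFKBIE had 5 higher and 13 lower of 21 distal sites at 72 h, NFKBIA 3 and 8 of 17, BCL3 7 and 10 of 20 and NFKBIZ 1 and 3 of 4. TNFAIP3 had 3 higher and 12 lower of 30 at 72 h, but 7 higher and 4 lower at 6 h. The 6 h shares, 23.33% and 13.33%, were near the 24.7% and 14.8% of all sites that are no promoter site. The TNFAIP3 median went from 0.34 at 6 h to −0.43 at 72 h. With factors from shared peaks the median of all distal members at 72 h was 0.39 in place of −0.58.

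**Figure D3:**
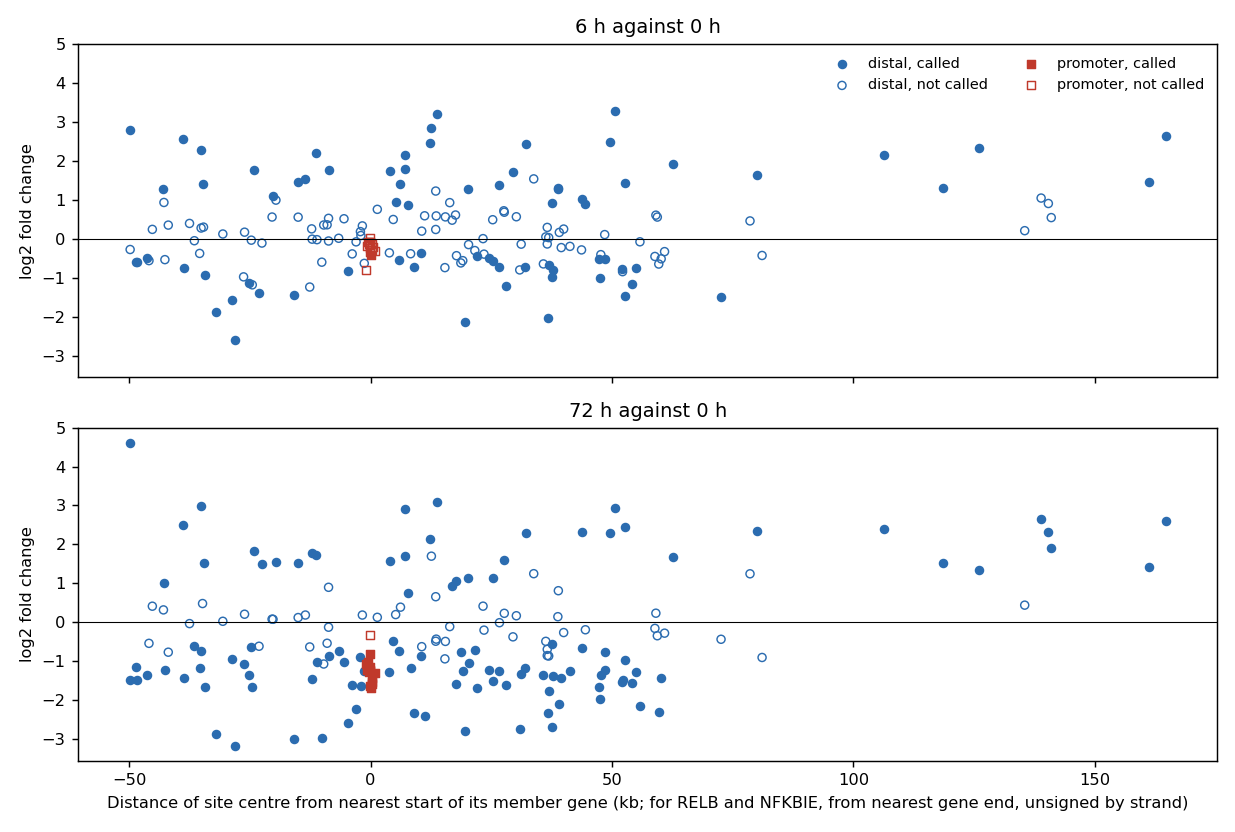
Log2 fold change against 0 h of each tested member site by the distance in kb of its centre from the nearest start of its gene (for RELB and NFKBIE from the nearest gene end, in chromosome direction). Filled symbols are called at an adjusted p under 0.05, squares are promoter sites and circles distal sites. Under TMM scaling promoter sites sit between −0.79 and 0.01 at 6 h and between −1.69 and −0.32 at 72 h, whereas distal sites spread from −3.17 to 4.61.

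For each gene the distal sites with the largest called change at each time were taken, so that these values are extremes by choice. Around NFKB1 the site at chr4:102627604-102628454 (peak127241, 126.1 kb from the nearest start and beyond the other end of the gene) had 3.83 and 8.32 CPM at 0 h, 31.1 and 31.5 CPM at 6 h and 14.3 and 17.1 CPM at 72 h. The 3 times did not overlap. It rose by 2.34 (SE 0.24, adjusted p = 1.2e-07) at 6 h and then fell by 0.99 (adjusted p = 0.0011), which left it 1.35 above 0 h. Without the second 0 h library the 2 gains were 3.03 and 2.04.

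A neighbor at chr4:102619892-102621141 (peak127240, chosen after its values were seen) had 6.69 and 10.7 CPM at 0 h, 16.97 and 25.4 CPM at 6 h and 20.6 and 30.0 CPM at 72 h. It rose by 1.29 (SE 0.24, adjusted p = 0.00016) at 6 h and stood 1.53 above 0 h at 72 h. With TMM it thus kept its gain, while peak127241, the more accessible site at 6 h only, lost part of its own. No test compared these courses. Inside the gene the site at chr4:102608075-102608664 (peak127239) went from 0.58 and 0.24 CPM at 0 h to 2.13 and 1.52 CPM at 6 h and 2.25 and 1.91 CPM at 72 h. Its 72 h gain of 2.39 (SE 0.48, adjusted p = 0.00014) became 3.09 without the first 0 h library.

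REL gained a site just past its far end (peak90131, chr2:60931968-60932505), with 0.32 and 0.14 CPM at 0 h, 3.33 and 1.42 CPM at 6 h and 1.61 and 1.86 CPM at 72 h. The gain was 3.29 (SE 0.59, adjusted p = 0.00012) at 6 h and 2.94 (SE 0.58, adjusted p = 0.00012) at 72 h. It rested on few reads at 0 h, 5 and 3 counts, and was 2.66 at 6 h without the first 6 h library and 3.55 at 72 h without the first 0 h library.

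NFKB2 gained a site inside GBF1 (peak27202, chr10:102358655-102359454), 35.1 kb upstream, which had 0.58 and 0.43 CPM at 0 h, 2.90 and 2.09 CPM at 6 h and 3.31 and 4.602 CPM at 72 h. The gains were 2.27 (SE 0.43, adjusted p = 0.00022) and 2.98 (SE 0.40, adjusted p = 1.2e-06). Around RELB the site inside CLPTM1 (peak84354, chr19:44962346-44962890) had 0.58 and 0.19 CPM at 0 h and between 1.94 and 2.30 CPM in the later libraries. Its 6 h gain of 2.56 (SE 0.49, adjusted p = 0.00026) ranged from 1.89 to 3.42 without the second or the first 0 h library, and its 72 h gain of 2.51 from 1.83 to 3.41.

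Around RELA the rule gave losses at both times, as it did around NFKBIA, NFKBIZ and TNFAIP3. The site 28.6 kb upstream (peak33601, chr11:65692000-65692942) had 8.97 and 6.26 CPM at 0 h, 2.47 and 2.56 CPM at 6 h and 3.99 and 3.87 CPM at 72 h. It fell by 1.58 (SE 0.28, adjusted p = 9.4e-05) at 6 h and was still 0.95 lower at 72 h (−0.95, SE 0.25, adjusted p = 0.0023), but 0.02 with factors from shared peaks. The site inside MAP3K11 (peak33590, chr11:65606794-65607464) was not called at 6 h (−0.08, SE 0.31), with 3.70 and 5.21 CPM at 0 h and 5.29 and 3.48 CPM at 6 h, and fell late to 0.78 and 1.23 CPM (−2.15, SE 0.33, adjusted p = 8.0e-06).

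The 3 neighboring sites downstream of NFKBIA moved in opposite directions. The site at chr14:35367559-35368271 (peak51016, 36.8 kb from the start) had 14.0 and 10.8 CPM at 0 h, 2.81 and 3.16 CPM at 6 h and 1.99 and 2.90 CPM at 72 h. It fell by 2.03 (SE 0.27, adjusted p = 3.0e-06) at 6 h and remained 2.33 lower at 72 h (−2.33, SE 0.26, adjusted p = 8.4e-08). The narrow site beside it (peak51015, chr14:35367151-35367378) fell by 2.69 at 72 h (SE 0.41, adjusted p = 5.9e-06). Its 6 h value of −0.98 (adjusted p = 0.0449) was called in 1 of the 6 fits with a library left out, with adjusted p from 0.022 to 0.196.

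The third site (peak51014, chr14:35365329-35366668), chosen after its values were seen, had 17.4 and 17.7 CPM at 0 h, 37.6 and 47.5 CPM at 6 h and 17.4 and 21.4 CPM at 72 h. It rose by 1.29 (SE 0.17, adjusted p = 3.3e-06) at 6 h and fell by 1.14 (SE 0.17, adjusted p = 1.5e-05) after it. The 6 h libraries stood clear of all others, and at 72 h the difference from 0 h was 0.14 (SE 0.17, adjusted p = 0.459), or 1.11 and called with factors from shared peaks.

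NFKBIE had a large gain that was kept. The site at chr6:44278810-44279790 (peak144301, 13.7 kb from the gene, within DRC5 and TMEM151B) had 2.21 and 2.06 CPM at 0 h, 19.1 and 19.8 CPM at 6 h and 17.3 and 18.7 CPM at 72 h. It rose by 3.19 (SE 0.22, adjusted p = 5.6e-10) at 6 h and the gain was kept at 3.08 (SE 0.22, adjusted p = 4.2e-10). All later libraries lay far above 0 h. Further out, inside AARS2 (peak144306, chr6:44308996-44309678, chosen after its values were seen), accessibility went from 0.91 and 1.96 CPM to 2.13 and 3.64 CPM and on to 6.63 and 8.26 CPM. The 72 h gain was 2.33 (SE 0.33, adjusted p = 2.9e-06), or 3.02 without the second 0 h library, and the 6 h gain of 1.03 (adjusted p = 0.0259) was lost in 4 of 6 fits with a library left out.

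Downstream of the NFKBIZ starts the site at chr3:101868631-101869323 (peak117569) had 13.4 and 7.65 CPM at 0 h, 3.75 and 1.49 CPM at 6 h and 1.501 and 1.51 CPM at 72 h. It fell by 2.14 (SE 0.35, adjusted p = 4.7e-05) at 6 h, with −2.81 and −1.53 without the first or the second 6 h library, and by 2.79 (SE 0.34, adjusted p = 3.3e-07) at 72 h. BCL3 gained 2 sites inside CBLC. The nearer (peak84322, chr19:44780701-44781300) had 0.71 and 0.53 CPM at 0 h, 2.81 and 3.70 CPM at 6 h and 3.003 and 3.04 CPM at 72 h. The farther (peak84324, chr19:44798085-44798656) rose by 2.47 (SE 0.40, adjusted p = 4.1e-05) at 6 h, and both gains were kept, at 2.30 and 2.28.

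Around TNFAIP3 the rule gave a loss, at chr6:137839059-137839473 (peak148012, 28.0 kb upstream). It had 3.05 and 1.72 CPM at 0 h, 0.60 and 0.28 CPM at 6 h and 0.21 and 0.31 CPM at 72 h, a fall of 2.59 (−2.59, SE 0.54, adjusted p = 0.00053) and then −3.17 (SE 0.50, adjusted p = 1.0e-05). Within the gene 2 adjacent sites, chosen after their values were seen, took different courses. At chr6:137874051-137874707 (peak148023) accessibility went from 1.30 and 0.91 CPM through 4.86 and 4.84 CPM to 8.34 and 7.98 CPM, a gain of 2.16 (SE 0.31, adjusted p = 8.4e-06) at 6 h and 2.91 (SE 0.29, adjusted p = 2.6e-08) at 72 h. The further gain after 6 h, 0.75 (adjusted p = 0.0161), was lost without the second 6 h library or without either 72 h library (adjusted p = 0.0645 to 0.103).

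At chr6:137873195-137873727 (peak148022), just before it, the libraries had 1.30 and 1.58 CPM at 0 h, 4.18 and 3.54 CPM at 6 h and 1.86 and 1.94 CPM at 72 h. This site rose by 1.39 (SE 0.34, adjusted p = 0.0021) and fell by 1.00 (SE 0.30, adjusted p = 0.0103), a return that was lost without either 72 h library (adjusted p = 0.109 and 0.0996).

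The 12 sites that changed at 6 h and returned by 72 h were chosen by these values, so that they are a description. TNFAIP3 held 5 of the 10 that rose. Upstream of it, the site at chr6:137853408-137854102 (peak148017) had 3.96 and 5.07 CPM at 0 h, 11.9 and 14.5 CPM at 6 h and 4.92 and 5.43 CPM at 72 h, with a rise of 1.54 (SE 0.24) and a fall of 1.36 (−1.36, SE 0.22). At chr6:137823985-137824724 (peak148008) the values were 6.43 and 8.13, 14.2 and 21.0, and 9.86 and 8.40 CPM. The 2 others (peak148011 and peak148028) were weak, with at most 3.33 CPM in any library.

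RELA had 1 such site, inside PCNX3 (peak33595, chr11:65635752-65636678), with 16.1 and 21.8 CPM at 0 h, 46.9 and 51.1 CPM at 6 h and 16.7 and 21.0 CPM at 72 h. NFKBIE had the highest level, at chr6:44237320-44238654 (peak144288), with 34.4 and 48.3 CPM at 0 h, 80.9 and 96.5 CPM at 6 h and 38.6 and 48.8 CPM at 72 h. In both, each 6 h library exceeded every other library. NFKB2 (peak27217) and RELB (peak84357, inside the gene) each had 1 such site, with 6 h gains of 0.89 and 0.94. NFKB1 had the 2 that fell and came back, peak127228 upstream (−1.39 at 6 h, then 0.78) and peak127237 inside the gene (−1.51, then 1.07). The rise of peak127228 after 6 h was at the threshold (adjusted p = 0.0494, edgeR). This site kept its class in 4 of 14 alternative settings, and peak127237 in 9.

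The return depended on the scaling at 72 h and on single libraries. In place of 12, 7 member sites were so classed with loess offsets, 7 with factors from shared peaks and 6 without the second 72 h library. The 6 h gain of peak27217 was lost without the first 0 h library (0.61) or the first 6 h library (0.48). That of peak84357, 0.94 with all libraries, was lost without the first 0 h library (0.65) or the second 6 h library (0.66). The 6 h gain of peak148028, 1.70 with all libraries, was lost without the second 0 h library (0.89) or the first 6 h library (1.27). The returns of peak84357, peak127228, peak127237, peak148008, peak148011, peak148022 and peak148028 were each lost without at least 1 of the later libraries. Those of peak33595, peak51014, peak144288 and peak148017 were called in each fit with a library left out, but not under each scaling. At 72 h these 4 sites were still called above 0 h with total counts (0.49, 0.64, 0.58 and 0.69) and with factors from shared peaks (0.96, 1.11, 1.05 and 1.16), and the first 3 also with loess offsets (1.01, 1.12 and 1.57).

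**Figure D4:**
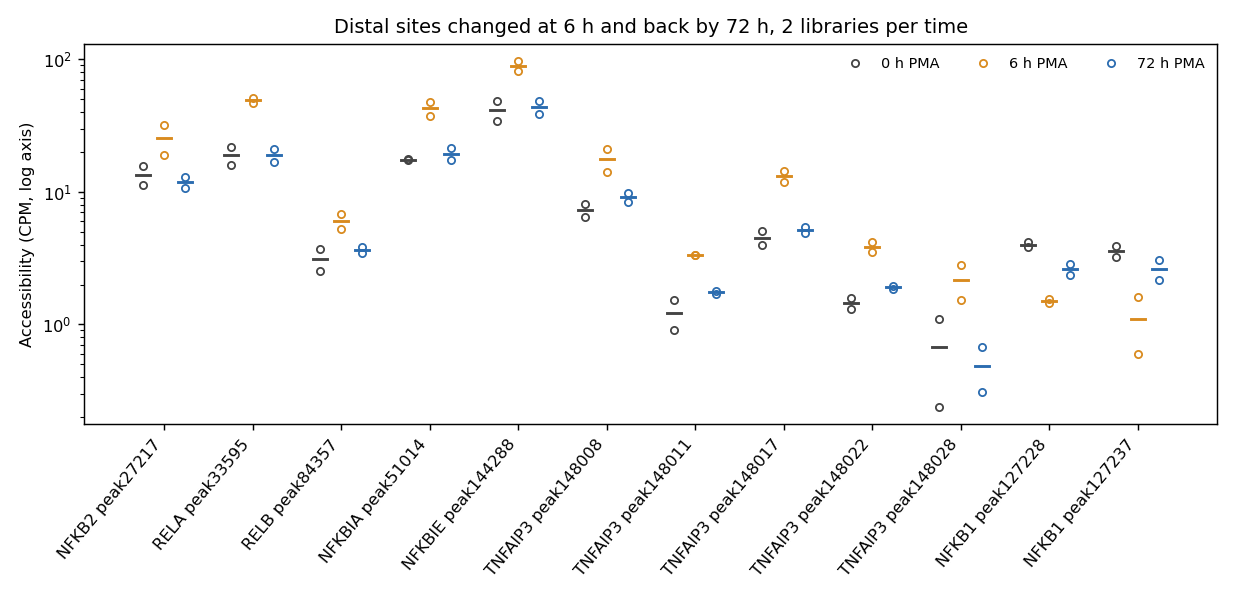
Accessibility in CPM on a log axis at the 12 distal sites called at 6 h and back by 72 h, named by gene and by the identifier of the deposited table. Circles are libraries, 2 per time, and bars are their means. In the 10 sites that rose both 6 h libraries lie above all 0 h and 72 h libraries, and in the 2 that fell they lie below, by the choice of the sites and under TMM scaling.

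The rest of the pathway was read at the gene starts of 51 textbook genes, of which 45 had a site, 5 of them taken from either gene end. For each gene the site with the highest mean CPM was read, whereas all promoter sites include weaker ones. At 6 h 7 sites were higher and 16 lower, and at 72 h 6 were higher and 35 lower, with medians of −0.27 and −1.21 beside −0.38 and −1.23 for all promoter sites. Of all promoter sites 7.44% were higher and 39.8% lower at 6 h, and 8.37% and 75.7% at 72 h. Among 24 adaptors and kinases 4 were higher and 8 lower at 6 h, and 2 and 20 at 72 h. Of 6 inhibitors with a site 4 were lower at 6 h and 6 at 72 h. Of 15 targets 3 were higher and 4 lower at 6 h, and 4 and 9 at 72 h.

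The pathway genes named here were chosen after their values were seen, and their values are with TMM scaling only. They do not stand for the list, in which 16 of 45 sites were lower at 6 h and 7 higher. TRAF1, an adaptor and itself a known NF-kB target, rose from 7.08 ± 2.02 CPM (SD, n = 2) at 0 h to 21.0 ± 3.43 at 6 h and stood at 14.4 ± 0.73 at 72 h (6 h log2 fold change 1.57, adjusted p = 4.97e-06). CD44, an adhesion receptor, rose from 3.36 ± 0.22 to 20.7 ± 0.34 and 15.6 ± 0.06 CPM. TRAF3, a brake on the noncanonical pathway, rose by 1.21 at 6 h and fell by 0.95 after it. CYLD, a deubiquitinase that restrains the pathway, had fallen by 0.43 at 6 h and by 1.58 at 72 h.

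Among all promoter sites, those most like the member promoter with the largest 6 h difference in size, the narrow NFKBIE site (peak144296), were at CDK17, NAV1 and B4GALT1. Their centred log2 CPM differed from it by a root mean square of 0.10, 0.10 and 0.12 over the 6 libraries. These are the smallest differences among 13938 tested promoter sites, so that the closeness is by choice. The 6 h difference of peak144296 itself was −0.79 and was not called.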

How the data were processed

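Accessibility was measured by ATAC-seq in 6 libraries of K562 cells, 2 each at 0, 6 and 72 h of PMA. The authors deposited whole read counts per site and library, and in the same table their own log2 fold changes, adjusted p-values and class names. They also deposited a peak list per library, whose columns hold a score, a fold enrichment (a ratio) and −log10 p-values and q-values. The submitters' processing notes name hg38, Trim Galore 0.4.3, BWA 0.7.17, SAMtools 1.9, MACS2, bedtools 2.26, deepTools 3.0.1 and DESeq, without roles or order. How sites were merged and whether read ends were shifted for the transposase is not given in the sources used here. Deposited starts count from 0, and 1 was added for printing.

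The member genes, gene lists and the rule for named sites were chosen with earlier results of these data known. Every promoter site of a member may be named, and for each gene the distal site with at least 1 mean CPM and the largest called change without overlap of libraries at 6 h and at 72 h. Others are said to be chosen after their values were seen. RELB and NFKBIE had no promoter entry in the RefSeq table (GRCh38.p14), so either end of the gene served as a start. Apart from these, the promoter sites of all protein-coding genes are those at starts of the 15843 genes with an entry. Starts of genes without an entry fall among the sites that are no promoter site. The consensus motif was matched exactly on both strands.

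Counts were fitted with edgeR 4.0.16 in R 4.3.3 by quasi-likelihood over all 6 libraries, with TMM scaling and the default filter at 10 counts, which left 177759 of 181135 sites. Adjusted p-values are Benjamini-Hochberg over all tested sites. SE is the size of the log2 fold change divided by the root of its F statistic. The fit was also run on simulated counts in which few sites changed, as many up as down. In the data most sites were called at 72 h, so that run could not test the scaling. The biological coefficient of variation was 0.166, and replicates differed by more than sampling noise (chi-square per degree of freedom 5.53, 4.69 and 3.54 at the 3 times). Depth ran from 12258890 to 35548737 counts, so that 1 count was worth 0.0853 to 0.0236 CPM. Alternatives were other scalings, DESeq2 1.42.0, no filter, a stricter threshold, a replicate block, each library left out, and other reaches and promoter widths. The authors' fold changes, p-values and classes entered no test.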

Additional observations from a re-analysis of the deposited data

Results flagged for a closer look

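A site 37.6 kb downstream of the TNFAIP3 start (peak148031, chr6:137904402-137905400) was picked out because its changes at 6 h and at 72 h had opposite signs and the change between these times was called. It had 11.6 and 10.9 CPM at 0 h, 18.9 and 23.1 CPM at 6 h and 7.51 and 7.79 CPM at 72 h, so that the 3 times did not overlap. It rose by 0.91 on the log2 scale at 6 h (SE 0.19, adjusted p = 0.00066, edgeR) and was 0.56 lower than at 0 h after 72 h (−0.56, SE 0.19, adjusted p = 0.0148). The direct test of 72 h against 6 h gave −1.47 (SE 0.19, adjusted p = 4.3e-06). The 72 h loss against 0 h was not called without either 72 h library (adjusted p = 0.0894 and 0.0688) and was 0.41 (adjusted p = 0.0588) with scaling factors from sites shared by all peak lists, where the direction turned.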

How the results depend on the processing

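Counts below are of member sites, given as 6 h against 0 h, 72 h against 0 h or 72 h against 6 h. DESeq2-type size factors gave 6 lower promoter sites at 6 h in place of 1, and DESeq2 gave 4, with 7 returned sites in place of 12 and 7 higher sites at 72 h against 6 h in place of 12. Total counts gave 0 lower promoter sites and 22 lower sites in all at 6 h (35 with TMM), 22 of them distal (34 with TMM). Loess offsets gave 8 lower promoter sites at 72 h, 53 lower sites at 72 h against 6 h (81 with TMM) and 7 returned sites. Factors from sites shared by all peak lists gave, at 6 h, 0 lower promoter sites and 14 lower sites, all 14 distal. They gave, at 72 h, 5 lower promoter sites, 71 higher sites (70 distal, 37 with TMM) and 34 lower sites (29 distal). They also gave 28 higher and 31 lower sites at 72 h against 6 h, 7 returned and 30 late sites (46 with TMM).

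Medians turned as follows. The promoter median at 6 h was 0.056 with loess offsets and 0.11 with shared-peak factors. The distal median at 6 h was −0.004 with DESeq2-type size factors, −0.06 with loess offsets, −0.012 with DESeq2 and −0.038 without the second 6 h library, and with a library left out it ran from −0.038 to 0.196. With shared-peak factors the distal median was 0.387 at 72 h and 0.088 at 72 h against 6 h. Single sites turned at 72 h with shared-peak factors (NFKB2 peak27207 0.16, RELA peak33601 0.018, NFKBIZ peak117567 0.64, NFKB2 peak27217 0.78, RELA peak33595 0.96, TNFAIP3 peak148031 0.41; against 6 h NFKBIE peak144301 0.56). With loess offsets they were NFKBIE peak144293 (0.32, and 0.044 against 6 h), BCL3 peak84314 (0.001), TNFAIP3 peak148021 (0.14), RELA peak33595 (1.01) and, against 6 h, NFKBIE peak144288 (0.03). RELA peak33595 was 0.49 with total counts. The cause was not tested.

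An adjusted p under 0.01 with a log2 change above 1 left 26 kept sites (58 otherwise), 4 returned, 11 lower at 6 h, all 11 distal, 0 lower promoter sites at 6 h, and 7 higher and 41 lower at 72 h against 6 h. Fewer sites fall in a reach of 10 kb: 14 higher and 7 lower at 6 h (14 and 6 distal), 12 and 33 at 72 h (12 and 19 distal), 2 and 33 at 72 h against 6 h, with 16 kept, 3 returned and 23 late. Gene bodies alone gave 5 and 4 (5 and 3 distal), 3 and 18 (3 and 6 distal) and 2 and 18, with 6 kept, 3 returned and 13 late. Away from gene ends 16 distal sites were lower at 6 h.

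With a library left out, kept sites ran from 43 to 53, returned from 6 to 12 and late from 32 to 53. At 6 h, higher sites ran from 28 to 41 in all and among distal sites, lower sites from 23 to 36 in all and from 23 to 34 among distal sites, and lower promoter sites from 0 to 2. At 72 h, higher sites ran from 29 to 37 in all and among distal sites, lower sites from 74 to 91 in all, from 60 to 77 among distal and from 13 to 14 among promoter sites. Against 6 h they ran from 4 to 14 higher and 53 to 87 lower. With the replicate number as a block 3 promoter sites were lower at 6 h, and the other counts stayed within 1.5 times. Deviations of libraries with equal numbers correlated by 0.05 to 0.09 over all sites and by 0.098 to 0.18 over the better-counted part, and with 2 pairs the numbers are not shown to pair the libraries. The first 6 h library was the shallowest (12258890 counts). Without it 23 sites were lower and 41 higher at 6 h, and without the second 28 were higher.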

Other observations

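Of the member sites in the authors' deposited table, 27 carry a class name other than static. For 12 of these (44.4%) the name goes against the sign of the authors' own 72 h log2 fold change in the same table. Over all sites with such a name this was so for 15445 of 37609 (41.1%).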
